A study of Homo sapiens with 12 samples.

Results

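KIAA0825 is a protein-coding gene on the minus strand of human chromosome 5, and its transcribed span was followed across 12 individual-nucleotide resolution UV cross-linking and immunoprecipitation (iCLIP) libraries. The members were all positions that the deposited lists place on the minus strand of chromosome 5 between 93486556 and 93954309 (hg19), a span of 467754 nt. That rule took 6339 of the 1162690 listed positions of the 12 libraries, from 36 to 2330 per library. Inside the span, the 10 kb bin from 93.53 to 93.54 Mb (the FOX2 peak bin) and the 10 kb bin from 93.68 to 93.69 Mb (the hnRNP M bin) were compared with the rest of the gene. Gene and bins were picked from counts measured in these libraries, and the rule does not say which of them were used. Differences between the proteins on the gene and in the bins are therefore descriptions of what was picked, in WT and in P-KO alike, and support nothing further.

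iCLIP reports where a protein touches RNA: cells are irradiated, the protein is pulled down with its cross-linked RNA, and reverse transcription tends to stop beside the linked base. FOX2 (RBFOX2) is a splicing factor that binds GCAUG in introns and acts according to its side of an exon. TDP43 binds GU-rich intronic RNA and represses cryptic exons, and hnRNP M is an abundant nuclear protein that binds GU-rich RNA and regulates alternative splicing. All 3 proteins are known to occupy long introns of pre-mRNA, where a site can lie far from any exon. The protein encoded by KIAA0825 is poorly characterised, and loss of the gene has been linked to extra digits (postaxial polydactyly).

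All libraries came from H9, a human embryonic stem cell line grown on Matrigel and cross-linked at 400 mJ/cm2. FOX2, TDP43 and hnRNP M were each immunoprecipitated from wild-type cells (WT) and from cells labelled P-KO, whose source label reads H9 SPA PKO. There were 2 libraries of each protein and genotype, which the series calls biological replicates. The labels do not say what the P-KO deletion removes or how many clones the P-KO libraries represent. SPA names a class of long noncoding RNAs with a small nucleolar RNA at the 5′ end, transcribed from chromosome 15 and known to bind these 3 proteins.

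Counts were taken from windows: in each library the listed positions were kept from the highest count downwards, at least 11 nt apart, so that a cross-link cluster was not counted at every base. The libraries held 58191 to 648651 window counts, and hnRNP M was the shallowest protein, at 58191 to 123482. Levels are scaled to a library total of 1000000 (CPM). On chromosome 15 between 25 and 26 Mb (plus strand), WT libraries held 0.915% to 1.63% of their window counts and P-KO libraries 0.0530% to 0.160%, so every library fell on the side of its label. The lists start at 2 counts, so a region listed at 0 may still have held single reads. The lists name transcripts and not genes, and marker genes of pluripotent cells were not examined.

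The listed positions lay almost wholly in a single stretch that the lists label as intron. Of the 6339 listed positions, 6326 (99.8%) carried the label intron 1 of transcript ENST00000513200.3, between 93491235 and 93697810, a stretch of 206576 nt. The intron numbers in the lists rise with the coordinate in 9879 of 9879 minus-strand transcripts that could be checked. On the minus strand this intron is therefore the last to be transcribed, nearest the 3′ end of the gene, in spite of its number. Another 2 listed positions were exonic, 8 lay in intron 19, and introns 16 and 9 and intron 11 of transcript ENST00000312498.7 had 1 each. RefSeq (GRCh38.p14, used for names only) also places the lncRNA gene LOC105379087, the pseudogenes MTND5P12, MTND6P3, MTCYBP35 and LOC100533629 and the protein-coding gene SLF1 over some part of KIAA0825. Without coordinates on hg19 their place relative to the bound stretch was not analysed here, so counts could belong to a transcript of theirs on the same strand.

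The 5′ part of the gene was almost empty. Beyond 93697810 the next listed position was at 93792247, 94437 nt further on. The 256499 nt beyond the stretch make up 54.8% of the span. The 26 bins past 93.7 Mb held 24 of the span's 19136 window counts (0.125%), in 10 of the bins. The opposite strand of the span was listed at 0 in all 12 libraries. Flanks of the same length on the minus strand held 12 to 51 window counts per library on the low-coordinate side and 0 to 33 on the high side, against 316 to 8860 inside the span. Such concentration in a single intron was not rare. Among 116 transcripts with at least 500 windows, 10 (8.62%) were at least as concentrated as KIAA0825, KIAA0825 itself included. Its figure was 99.4% of its windows, against a median of 64.7%.

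**Figure D1:**
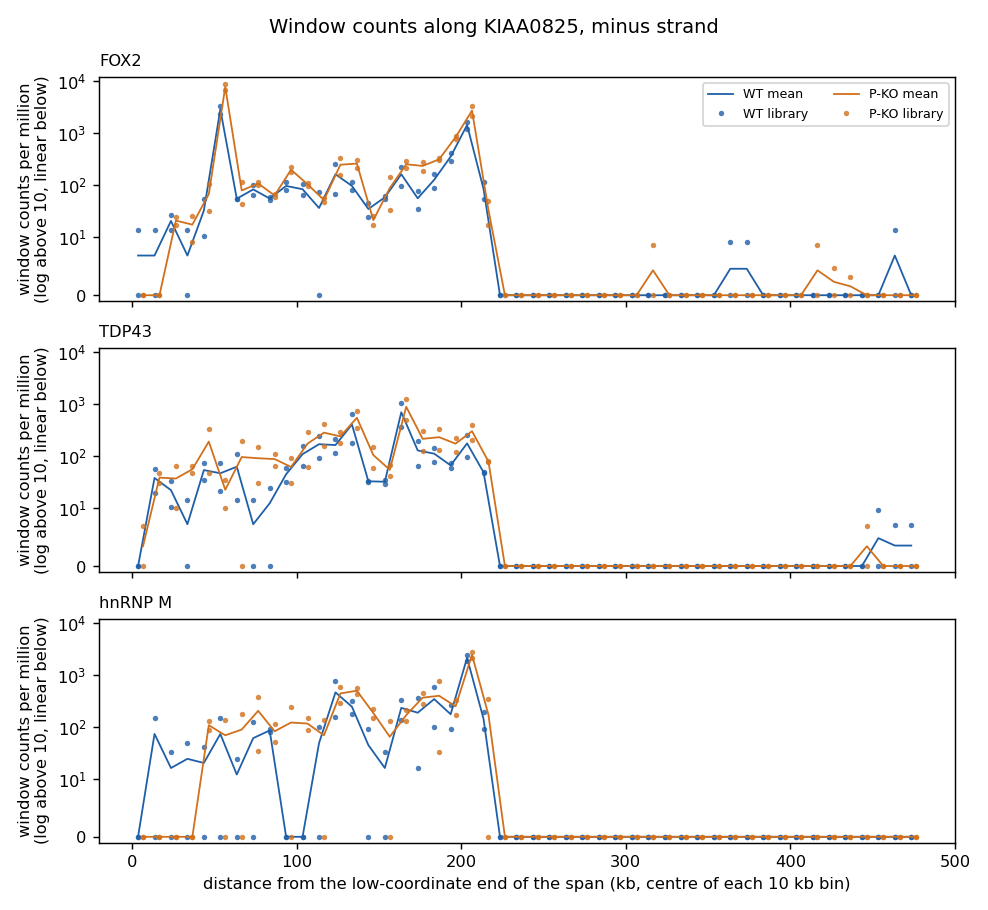
Window CPM (vertical axis, logarithmic above 10 and linear below) in each 10 kb bin of the span, by distance in kb from its low-coordinate end (horizontal axis), for FOX2, TDP43 and hnRNP M. Points are libraries, lines are means of 2 libraries, and WT and P-KO are blue and orange. FOX2 has high points in the FOX2 peak bin and the hnRNP M bin, hnRNP M in the latter, and beyond 93.7 Mb the bins hold 0.125% of all window counts.

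In summed counts, FOX2 gave the gene its highest level. In WT the whole span held 6085 and 5798 CPM in the FOX2 libraries, 3451 and 1424 CPM in the TDP43 libraries, and 5306 and 3418 CPM in the hnRNP M libraries. In P-KO the same libraries held 13193 and 13659 CPM for FOX2, 5596 and 2313 CPM for TDP43, and 6126 and 5430 CPM for hnRNP M. The 4 FOX2 libraries thus lay above every TDP43 library in both genotypes. The hnRNP M libraries lay below the FOX2 libraries of the same genotype. The TDP43 replicates of a genotype differed by a larger factor than the means of the genotypes did. When windows were counted without their heights the order of FOX2 and hnRNP M turned: the span held 0.294% and 0.207% of FOX2 windows in WT, then 0.476% and 0.363% in P-KO, and 0.493% and 0.321% of hnRNP M windows in WT, then 0.558% and 0.532% in P-KO.

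Each protein laid its counts out differently along the intron. FOX2 placed 38.5% and 58.5% of its counts on the gene in the FOX2 peak bin in WT, against 50.4% and 64.1% in P-KO. It placed a further 27.0% and 21.1% in the hnRNP M bin in WT, against 25.1% and 15.4% in P-KO. hnRNP M placed 45.6% and 52.8% of its counts in the hnRNP M bin in WT, against 43.9% and 38.9% in P-KO. TDP43 placed 90.5% and 91.8% outside both bins in WT, against 92.3% and 90.7% in P-KO. The FOX2 peak bin thus led in every FOX2 library and the rest of the gene in every TDP43 library. For hnRNP M the single 10 kb bin led in the second WT library, and the rest of the gene in the other 3 libraries.

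**Figure D2:**
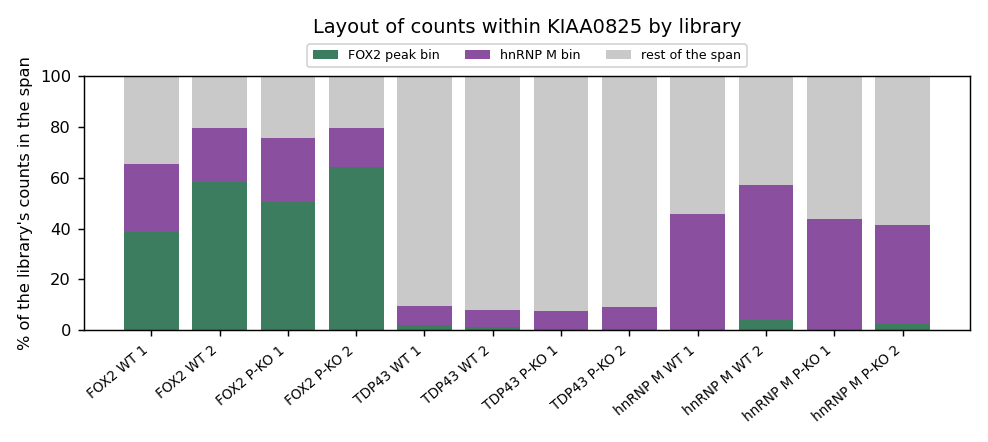
Share of each library's window counts in the span (vertical axis, percent) that lay in the FOX2 peak bin, the hnRNP M bin and the rest, for the 12 libraries. The FOX2 peak bin takes 38.5% to 64.1% in FOX2 libraries, and the rest takes 90.5% to 92.3% in TDP43 libraries.

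The FOX2 peak bin was among the strongest FOX2 bins of the genome. It held 513 and 979 FOX2 window counts in WT, against 1543 and 5682 in P-KO, which ranked it 7th and 5th among all strand-specific bins in WT, against 4th and 3rd in P-KO. TDP43 gave 15 and 6 counts there in WT, against 6 and 3 in P-KO. hnRNP M was listed at 0 in the first WT and first P-KO libraries, and gave 18 counts in the second WT and 8 in the second P-KO library. At the mean share of the FOX2 WT libraries, the hnRNP M libraries would have held 177 and 354 counts in WT, then 178 and 167 in P-KO. The WT level of FOX2 was 2868 ± 739 CPM (SD, n = 2), 61.4-fold that of TDP43 (46.7 ± 36.1 CPM) and 39.4-fold that of hnRNP M (72.9 ± 103 CPM).

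In P-KO, FOX2 stood at 7703 ± 1495 CPM, TDP43 at 22.5 ± 17.3 CPM and hnRNP M at 68.7 ± 97.2 CPM (SD, n = 2 each). In edgeR's quasi-likelihood fit of all 12 libraries over 10563 bins, FOX2 exceeded TDP43 there by 8.89 on the log2 scale (SE 1.98) and hnRNP M by 8.84 (SE 1.98). Counting windows in place of their counts brought these differences down to 4.54 and 3.80, and leaving out the TMM scaling (trimmed mean of M values) to 7.98 and 6.56. Of the 20 bins of the gene that entered the fit, the FOX2 peak bin was the 1 past an adjusted p of 0.05 in each contrast, where 1.64% of all bins were between FOX2 and TDP43 and 9.77% between FOX2 and hnRNP M. Nothing is read from that count, since the bin was picked for its FOX2 level. It was also lost against TDP43 without any one FOX2 library or either TDP43 P-KO library, and against hnRNP M without the first hnRNP M P-KO library.

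Most of the peak lay within a single kilobase, chosen after its values were seen. The kilobase 93535001 to 93536000 held 491 of 513 and 965 of 979 FOX2 counts of the bin in WT, against 1518 of 1543 and 5461 of 5682 in P-KO. These are 95.7%, 98.6%, 98.4% and 96.1%. The 5 FOX2 positions of highest summed count on the gene fell within 192 nt, and the 202 nt from 93535244 to 93535445 held 59.3% and 51.5% of the bin in WT, against 54.2% and 44.5% in P-KO. The interval lies inside the same long intron.

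Within that interval the leading positions had counts in all 4 FOX2 libraries, each value being the highest count listed within 5 nt. They were ranked on counts summed over these same libraries. The kilobase was also dense, with 183 and 314 listed positions in WT, against 414 and 737 in P-KO. Nothing is therefore read from their presence in each library. Position 93535440 had 23 and 117 FOX2 counts in WT, against 86 and 484 in P-KO. Position 93535314 had 76 and 43 in WT, against 147 and 241 in P-KO, and 93535249 had 57 and 46 in WT, against 111 and 205 in P-KO. Positions 93535420 (24 and 42 in WT, 70 and 268 in P-KO) and 93535380 (59 and 36 in WT, 120 and 176 in P-KO) completed the 5. Which of them led differed between the WT replicates: 93535314 in the first and 93535440 in the second. At these 5 positions hnRNP M was listed at 0 in all 4 libraries, and TDP43 had counts in the WT libraries alone, none above 9.

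**Figure D3:**
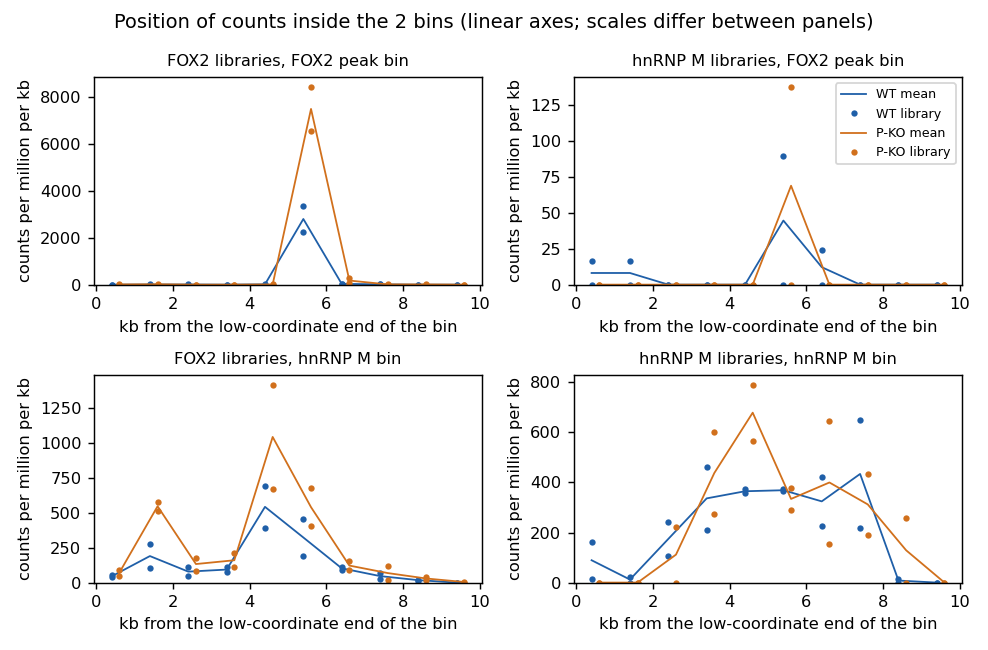
Window CPM in each kilobase (vertical axes, linear, with a scale of its own in each panel) of the FOX2 peak bin and the hnRNP M bin, by distance in kb from the bin's low-coordinate end, for FOX2 and hnRNP M libraries. Points are libraries and lines are means of 2 libraries. FOX2 forms 1 narrow summit in the FOX2 peak bin, while hnRNP M counts spread over several kilobases of the hnRNP M bin.

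The hnRNP M bin was shared by hnRNP M and FOX2. hnRNP M gave 149 and 223 window counts in WT, against 167 and 123 in P-KO, and the bin ranked 2nd and 6th of all hnRNP M bins in WT, against 1st and 3rd in P-KO. FOX2 gave 359 and 354 in WT, against 768 and 1367 in P-KO, with ranks of 10 and 27 in WT, against 11 and 24 in P-KO. TDP43 gave 53 and 27 in WT, against 68 and 60 in P-KO. In CPM, hnRNP M stood at 2418 and 1806 in WT, against 2692 and 2114 in P-KO, and FOX2 at 1641 and 1226 in WT, against 3308 and 2107 in P-KO. The hnRNP M libraries lay above the FOX2 libraries in WT, and the values of the proteins overlapped in P-KO, where their means differed by 1.13-fold.

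None of the protein contrasts passed in the hnRNP M bin, whose choice may have used these libraries. Among P-KO libraries the fitted difference was 3.53 on the log2 scale between FOX2 and TDP43 (SE 1.51, edgeR adjusted p = 0.198), 2.32 for FOX2 against hnRNP M (SE 1.43, adjusted p = 0.275) and 1.21 for hnRNP M against TDP43 (SE 1.39, adjusted p = 0.700). The last contrast called 0 of the gene's 20 bins by edgeR, where 0.814% of all bins passed, and 2 bins by DESeq2. At an unadjusted edgeR p under 0.05 there were 4, all lower for hnRNP M. The share of all bins at that level is not given, so nothing is read from the 4. TMM scaling weighed on the fitted differences: it moved the median of all bins between FOX2 and hnRNP M from -0.49 to 1.13. Without it the hnRNP M bin differed by -0.045 between FOX2 and hnRNP M, turning the sign, and by 2.79 between hnRNP M and TDP43 (adjusted p = 0.314). DESeq2 called the latter difference, at 1.91 (adjusted p = 0.0427). Nothing is read from the DESeq2 calls, since the bin may have been picked for its hnRNP M level in these libraries. The share of all bins that DESeq2 called is not given.

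The bin was also built differently from the FOX2 peak bin. FOX2 counts were highest in the kilobase 93684001 to 93685000, with 151 and 113 in WT, against 328 and 433 in P-KO. In the second P-KO library the kilobase 93681001 to 93682000 came next, with 375. hnRNP M counts were spread over the kilobases from 93683001 to 93688000. Its 5 leading positions on the gene were 93684802, 93686872, 93683061, 93684773 and 93612921, none with more than 18 counts in a library. Of these, 93683061 was listed in 2 hnRNP M libraries (7 counts in the second WT and 9 in the first P-KO library) and the others in 1. Single hnRNP M positions were thus rarely seen again, although the bin as a whole was high in all 4 hnRNP M libraries.

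TDP43 had its highest bins elsewhere. The first was 93640001 to 93650000, with 214 and 101 counts in WT, against 218 and 146 in P-KO (1030 and 357 CPM, then 1263 and 499 CPM). The bin 93610001 to 93620000 came next in all 4 libraries, with 131 and 50 in WT, against 128 and 101 in P-KO. The leading TDP43 position, 93616989, had 51 and 3 counts in WT, against 47 and 5 in P-KO, so it was high in the first replicate of each genotype. Position 93641015 was more even, with 13 and 5 in WT, against 13 and 15 in P-KO. Between hnRNP M and TDP43 in P-KO, the bin 93640001 to 93650000 differed by -4.08 (SE 1.54, edgeR adjusted p = 0.129), which did not pass. The bin next in rank for FOX2 after the hnRNP M bin, 93670001 to 93680000, had 92 and 83 FOX2 counts in WT, against 206 and 510 in P-KO.

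Sites recurred most often in the FOX2 peak bin. Sites were the window positions of a protein's 4 libraries, kept from the highest count downwards at least 11 nt apart. A site was seen in a library that had a window within 5 nt. In the FOX2 peak bin 22 of 97 FOX2 sites (22.7%) recurred in all 4 libraries, against 14 of 197 in the hnRNP M bin (7.11%). Outside both bins the FOX2 share was close to that of TDP43, at 7 of 376 sites (1.86%) and 9 of 502 sites (1.79%). For hnRNP M 0 of 226 sites of the span did, and 12 were seen in 2. Between pairs of libraries of a protein, 34.1% to 86.7% of the FOX2 windows of either library had a window of the other within 5 nt in the FOX2 peak bin. Over the whole span the same share was 20.8% to 53.9% for FOX2, 5.88% to 26.7% for TDP43 and 0% to 11.4% for hnRNP M. In the rest of the gene it was 8.40% to 39.5% for FOX2 and 6.04% to 28.3% for TDP43, ranges that overlap. Depth moved with these shares, since hnRNP M was the shallowest protein and FOX2 the deepest on this gene, and its part in them was not tested. FOX2 windows of the FOX2 peak bin were also closely packed. The kilobase 93535001 to 93536000 held 37 and 50 of them in WT, against 54 and 66 in P-KO. A window within 5 nt is easily met there, and no baseline for it was computed. No repeated use of single sites is therefore read from these shares.

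Within the hnRNP M bin, 39 of 90 hnRNP M sites (43.3%) had a FOX2 site within 5 nt, which was 39 of 197 FOX2 sites (19.8%). The FOX2 sites covered 21.7% of the bin. TDP43 sites lay within 5 nt of 13 of 90 hnRNP M sites (14.4%), or 13 of 48 TDP43 sites (27.1%), and covered 5.28% of the bin. The FOX2 share of these neighbours exceeded the bin's coverage, and so did that of TDP43, and no test was made of either. FOX2 and hnRNP M windows were uneven along the bin, both being frequent between 93684001 and 93686000. Coverage averaged over the whole bin is therefore a low baseline, and no shared sites are read from the excess.

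The comparison of P-KO with WT asked whether binding on KIAA0825 differed between the genotypes. Gene and bins may have been picked with P-KO counts among those used, so the p-values between genotypes are not free of that choice. As a share of the library, FOX2 put 0.594% ± 0.0203 of its counts in the span in WT, against 1.34% ± 0.0330 in P-KO (SD, n = 2 each), a 2.26-fold difference, and both P-KO libraries lay above both WT libraries. For hnRNP M the share was 0.436% ± 0.134 in WT, against 0.578% ± 0.0492 in P-KO, 1.32-fold, again without overlap. For TDP43 it was 0.244% ± 0.143 in WT, against 0.395% ± 0.232 in P-KO, 1.62-fold, with overlapping groups. Across all transcript rows tested, both P-KO libraries lay above both WT libraries in 14.4% of rows for FOX2, in 10.5% for hnRNP M and in 19.8% for TDP43.

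Over the 3 proteins the shift of the span was 0.77 on the log2 scale, or 1.71-fold. An exact two-sided permutation test that exchanged genotypes within each protein (216 arrangements, smallest possible p = 0.00926) gave p = 0.0370, or 0.0864 after Benjamini-Hochberg adjustment over the 4 regions tested. The hnRNP M bin shifted by 0.65 (exact p = 0.0648, adjusted 0.0864) and the rest of the gene by 0.77 (exact p = 0.0556, adjusted 0.0864). The FOX2 peak bin shifted by 0.11 over the 3 proteins (exact p = 0.907, adjusted 0.907), with -1.05 for TDP43, -0.047 for hnRNP M and 1.44 for FOX2, and its sign turned when all listed counts were summed (-0.26). None of the 4 regions passed after adjustment. Without the first TDP43 WT library, the span, the hnRNP M bin and the rest did, each at an adjusted p of 0.0494. With 2 libraries a group, a single protein could not give an exact p under 0.333.

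**Figure D4:**
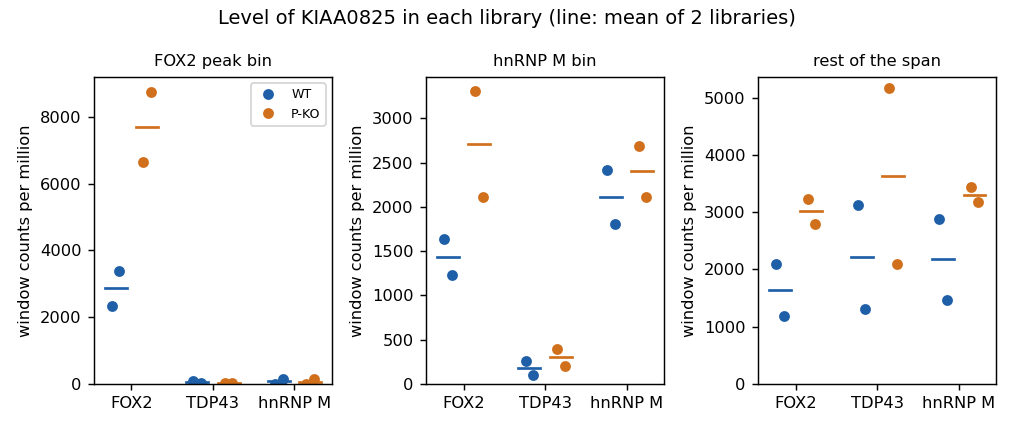
Level of each region (vertical axes, CPM, linear from 0) in the 12 libraries, by protein, with WT in blue and P-KO in orange. Points are libraries and bars are means of 2 libraries. In the FOX2 peak bin both FOX2 P-KO libraries (6646 and 8760) lie above both FOX2 WT libraries (2345 and 3391), and the other proteins stay near 0.

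The fit across all transcript rows gave the largest difference for FOX2 and the smallest for hnRNP M, as the shares did. In edgeR's quasi-likelihood test over 7189 rows, the KIAA0825 row was higher in P-KO by 1.61 on the log2 scale for FOX2 (SE 0.50, unadjusted p = 0.00309, adjusted p = 0.998), by 0.49 for TDP43 (SE 0.49, adjusted p = 1.00) and by 0.13 for hnRNP M (SE 0.49, adjusted p = 1.00). The mean of the 3 contrasts was 0.75 (SE 0.28, unadjusted p = 0.0137, adjusted p = 0.664). None passed, against a background of 0.0556% of rows for FOX2, TDP43 and the mean, and 0.0835% for hnRNP M. DESeq2 gave the FOX2 contrast as 1.82 with an adjusted p of 0.0491, and edgeR without TMM as 1.11 (adjusted p = 0.708). Over the 9 alternative settings on all libraries or only those compared it ran from 1.08 to 1.82, and 8 of them did not pass. The share of all rows that DESeq2 called is not given. A difference between proteins in the genotype effect was not shown by edgeR's interaction test (unadjusted p = 0.103, adjusted p = 0.940). On a plain scale of log2(mean CPM + 10), KIAA0825 was higher by 1.17 in P-KO than in WT for FOX2, where the median row differed by -0.40. A value at least as high was found in 542 of 7189 rows (7.54%), KIAA0825 itself included.

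Among 10 kb bins, none of the gene's 20 tested bins passed between P-KO and WT for any protein by edgeR. At an unadjusted p under 0.05 there were 2 for hnRNP M, 1 for TDP43, 0 for FOX2 and 3 for the mean of the proteins, and DESeq2 also called 0. The 2 hnRNP M bins, starting at 93570001 and 93580001, were listed at 0 in both WT libraries and held at most 15 counts in a P-KO library. They were also 2 of the 3 for the mean, and the other, starting at 93490001, was lower in P-KO (-3.02). The TDP43 bin, starting at 93550001, was higher in P-KO (3.52) and held 3 and 0 counts in WT. The background of adjusted edgeR calls was 0.0473% of all bins for hnRNP M, 0.0284% for TDP43, 0.0189% for FOX2 and 0.123% for the mean. The share of all bins at an unadjusted p under 0.05 is not given, so nothing is read from those counts. The FOX2 peak bin differed by 1.58 for FOX2 (SE 1.42, adjusted p = 1.00), by 0.97 without TMM and by 0.075 when windows were counted in place of their counts. The hnRNP M bin differed by -0.37 for hnRNP M (SE 1.37, adjusted p = 1.00). That last sign turned without TMM (0.14) and by DESeq2 (0.12).

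The fitted differences of the gene's bins, none of which passed, were mostly above 0 for FOX2 and TDP43 and divided for hnRNP M. For FOX2, 17 of 20 fitted differences were above 0 with a median of 0.79, where all bins had a median of -0.23. Without TMM 14 of 20 were, with a median of 0.18 against -0.83 for all bins, and DESeq2 gave a median of 0.47 against -0.62. For TDP43 18 of 20 were above 0 with a median of 0.65, against 0.034 for all bins. For hnRNP M 11 of 20 were, with a median of 0.22 against -0.18. Leaving out bins in which a genotype was listed at 0 in both libraries (1 for FOX2, 4 for hnRNP M) gave medians of 0.79 and 0.22. Above 0 were then 17 of 19 for FOX2 and 9 of 16 for hnRNP M. The share of all bins above 0 is not given. Bins of the same intron in the same libraries are also not separate observations, so nothing is read from these counts. Both P-KO libraries lay above both WT libraries in 7 of 20 FOX2 bins, where 16.8% of all bins did so, in 7 TDP43 bins (16.3% of all) and in 4 hnRNP M bins (9.15% of all).

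The mean height of FOX2 windows was greater in the P-KO libraries than in the WT libraries. The mean count per window over a whole library was 2.76 and 2.93 in the WT libraries of FOX2, against 3.84 and 5.76 in its P-KO libraries. In the kilobase of the peak it was 13.3 and 19.3 in WT, against 28.1 and 82.7 in P-KO, on 37 and 50 windows in WT, against 54 and 66 in P-KO. The ratio of the peak to its library was 4.81 and 6.58 in WT, then 7.32 and 14.4 in P-KO. The lists do not say whether PCR copies were removed, and the part of window height in the FOX2 differences was not tested.

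Over the whole row, FOX2 stood above the other proteins among the P-KO libraries. The row holds the FOX2 peak bin, and the gene was picked for its binding, so the sizes are given as a description. The fitted difference was 2.30 on the log2 scale against TDP43 (SE 0.51) and 2.73 against hnRNP M (SE 0.52). Without TMM these were 1.76 and 1.33, and with windows counted in place of their counts 0.87 and 0.67. Both fitted differences passed an adjusted p of 0.05 in edgeR with TMM, as did 2.41% of all rows against TDP43 and 6.25% against hnRNP M, and neither did with windows counted. Nothing is read from these calls. hnRNP M against TDP43 gave -0.43 (SE 0.49, edgeR adjusted p = 0.751), where 0.403% of all rows passed. Without TMM this turned to 0.43.

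The features whose levels over the 12 libraries were most like these were named by correlation. On log2(CPM + 10), the rows most like KIAA0825 among 3721 were transcripts ENST00000329235.2 (Pearson r = 0.957) and ENST00000254190.3 (r = 0.920), given as a description over libraries that share depth and protein. Among 2675 bins elsewhere, the FOX2 peak bin was most like chromosome 5 minus strand 1470001 to 1480000 (r = 0.981) and chromosome 20 plus strand 62290001 to 62300000 (r = 0.980). The former held 188 and 247 FOX2 counts in WT, against 412 and 1209 in P-KO, and the latter 74 and 191 in WT, against 166 and 645 in P-KO. Neither had more than 9 counts in any TDP43 or hnRNP M library.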

How the data were processed

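Each of the 12 libraries had 1 deposited list of cross-link positions with a whole-number count per position, a strand, a transcript label and a value used here as a p-value or q-value. Per the file contents the deposited counts start at 2 and the deposited p-values or q-values end at 0.05, and which of both they are is not stated. The submitters' processing notes name Bowtie and GRCh37 (hg19). Neither the caller nor any removal of PCR copies is given in the sources used here. All positions are 1-based on hg19.

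Window counts (11 nt spacing) were summed per library over the span, its regions, strand-specific 10 kb bins and transcript rows, with all positions of the span in 1 row. Fits used edgeR 4.0.16 in R 4.3.3 (quasi-likelihood test, TMM, filterByExpr, all 12 libraries, Benjamini-Hochberg over all features), with DESeq2 1.42.0 as an alternative. Shares used exact permutation tests (Python 3.11.15, scipy 1.17.1), with 0.5 counts for libraries listed at 0 in the log. Standard errors are the size of the log2 difference over the square root of F. Counting error is one part of the spread only, and 2 libraries a group limit every test.

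On data simulated for the FOX2 contrast with the real spread (7592 bins), the fit recovered 0% of bins changed 4-fold or 8-fold. With a spread of 0.1 (7456 bins) it recovered 63% and 99%, with 7 false calls. A lack of calls between genotypes therefore says little.

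Named were KIAA0825, its tested bins, the 5 highest positions per protein and the 2 most alike rows and bins. Members and lists were chosen with earlier results of these data known. Replicate numbers were not used to pair the libraries in the main tests, and whether they do was not settled. The letters under the windows and cell type markers were not analysed here, since no genome of this build and no transcript-to-gene table was used. Alternatives tried were the counting of windows, all listed counts or windows of at least 4 counts, no TMM, DESeq2, the replicate number as a block, only the libraries compared, other site distances and leaving out each library.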

Additional observations from a re-analysis of the deposited data

How the results depend on the processing

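The shift of the FOX2 peak bin over the 3 proteins (0.11) turned to -0.26 with all listed counts summed, -0.057 with windows counted and -0.51 with windows of at least 4 counts, and ran from -0.58 to 0.81 when each library was left out. With the replicate number as a block the span (0.77), the hnRNP M bin (0.65) and the rest (0.77) each passed at an adjusted p of 0.0417. The correlation of replicate differences between groups was 0.00776 to 0.132 over bins, above 0.1 in 1 of 15 pairs. Such values cannot settle whether the numbers pair the libraries, so the block is given as an alternative alone. Leaving out each library gave 0.56 to 0.98 for the span, 0.41 to 0.89 for the hnRNP M bin and 0.56 to 0.99 for the rest. In the fits, the FOX2 row between genotypes was 1.82 by DESeq2 and 1.11 without TMM. The TDP43 row ran from -0.016 to 1.22 without single libraries. The hnRNP M bin in hnRNP M libraries was 0.14 without TMM, 0.12 by DESeq2 and -0.98 to 0.34 without single libraries. Among P-KO libraries without single libraries, the FOX2 peak bin differed by 8.30 to 9.50 against TDP43 and 8.26 to 14.33 against hnRNP M (4.54 to 9.21 and 3.80 to 9.32 over the other settings, lowest with windows counted), and the FOX2 row by 2.09 to 2.97 against TDP43. The row differences were 0.87 and 0.67 with windows counted and 2.35 and 2.38 with only the compared libraries. The hnRNP M bin against TDP43 was 1.91 by DESeq2. Called bins of the gene for FOX2 against TDP43 were 3 by DESeq2, 4 with windows counted and 4 with only the compared libraries. Against hnRNP M they were 2 by DESeq2, 2 with the replicate block and 2 with only the compared libraries. For hnRNP M against TDP43 they were 2 by DESeq2 and 1 with windows counted. In each contrast the count also moved when some single libraries were left out. The share of all bins called under each setting is not given here, so nothing is read from these counts. FOX2 windows of the FOX2 peak bin in the first WT library repeated in the second were 56.8% within 5 nt, 6.82% at 0 nt and 79.5% within 10 nt. Among P-KO libraries, both FOX2 row differences kept their side of the threshold in 7 of 9 settings other than leaving out a library. Against TDP43, the row and the FOX2 peak bin did not keep it in every fit without a single library. Neither did the FOX2 peak bin against hnRNP M, nor the genotype shifts of the span, the hnRNP M bin and the rest. Apart from all these and the sign changes without TMM given above, the results recomputed kept their direction and side of the threshold. The cause was not tested.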
